A study of Homo sapiens with 3 samples.

Results

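The array of cells carrying the Hsp27 open reading frame (ORF) vector was set against the array of cells carrying the Hsp27 short hairpin RNA (shRNA) vector, gene by gene. These are 2 of the 3 arrays of the series, with 1 array for each vector. The third array, from cells with a control vector, took no part in the ratio and is given beside it as a level. All 3 arrays are labelled as HepG2, an established human liver tumour line, stably transfected and grown in DMEM with fetal bovine serum. The sample titles name the constructs IRES2-HSP27, HSP27-SiRNA and EGFP-NC, so the RNA interference construct is called an siRNA in its title and an shRNA in its transfection label. Whether each line is 1 clone or a pool of transfected cells is not stated. Genes were taken from probe sets that the platform annotation pairs with 1 gene symbol, using for each gene the probe set with the highest mean log2 signal over the 3 arrays. Of 19775 genes so represented, 12394 stood above the background floor on the ORF or the shRNA array and are called measured, against 12664 above it on any of the 3 arrays. The floor is a log2 signal of 5.93, the median over all probe sets of the 3 arrays, and lower signals were raised to it before a ratio was taken. Measured genes whose brighter reading reached a log2 signal of 8.63, the 75th percentile over all probe sets, are called bright (8081 genes), and the other 4313 are called dim.

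Hsp27, the product of HSPB1, is a small heat shock protein without ATPase activity that holds unfolding proteins in solution until other chaperones can refold them. It is also phosphorylated downstream of the p38 MAP kinase, binds actin and affects how actin filaments are built up and taken down. In liver tumours its abundance has been studied in relation to invasion and spread, and the series' title places the experiment in that field. The comparison therefore asks which transcripts differ between cells with a vector meant to supply Hsp27 and cells with a vector meant to remove it.

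HSPB1 had log2 signals of 13.11 with the ORF label, 13.03 with the shRNA label and 13.25 on the control array. All 3 values lay close together, and the highest was on the control array. The log2 ratio of ORF to shRNA was 0.08, or 1.05-fold, which is no larger than the probe-set noise SD of 0.09. That SD describes how far probe sets of the same gene disagree about the ratio, and it leaves out variation between cultures. The direction of ORF against shRNA follows the labels, but the control value above both goes against the label of the ORF array. The arrays are therefore called by their labels, and every direction given here rests on those labels. Of the other small heat shock proteins, 4 were measured. HSPB8, which works with BAG3 in clearing misfolded proteins, read 12.01 on ORF, 12.30 on shRNA and 12.41 on control, and HSPB3, HSPB7 and CRYAB had log2 ratios of -0.20, 0.06 and -0.19.

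Several secreted proteins that define hepatocytes were at or near background on both arrays. ALB (albumin) read 4.68 on ORF, 4.88 on shRNA and 4.27 on control, all under the floor. TTR (transthyretin), APOA1 and GPC3 were also under the floor on both compared arrays, and AFP (alpha-fetoprotein) read 5.70 and 6.25 there. Of 24 hepatocyte markers on the array design, 6 were measured and 2 of them, CPS1 and RBP4, were bright. Most of these markers therefore do not bear out the liver label of the arrays, and the identity of the line was not tested. Leukocyte markers were measured for 2 of 12 genes with 0 bright, PTPRC (CD45) was under the floor on all 3 arrays, and intestinal markers were measured for 0 of 10. Fibroblast and stellate markers were measured for 9 of 14 genes, 3 of them bright, and their summed linear signal was 11060 on ORF, 13511 on shRNA and 13141 on control. Mesothelial markers were measured for 4 of 12 genes, 3 of them bright, and lung and thyroid markers for 5 of 9, 2 of them bright. Endothelial markers were measured for 6 of 14 genes with 1 bright, and squamous and basal markers for 3 of 12 with 2 bright. Spike-in controls read between -0.02 and 0.05 log2 higher on ORF than on shRNA over 9 probe sets. With 1 array per vector there is no replicate check, so no p-value is given, and each difference describes these arrays rather than the vectors.

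Most transcripts were at nearly the same level on both arrays. The median log2 ratio of ORF to shRNA was 0.01 over the measured genes and 0.01 over the bright genes, and 73.0% of the bright genes differed by less than 0.2. At the 1.5-fold threshold, a log2 ratio of 0.585 or more in size, 334 of 12394 measured genes (2.69%) were higher on ORF and 340 (2.74%) were lower. Among bright genes, 86 of 8081 (1.06%) were higher and 77 (0.953%) were lower. At 2-fold, 37 measured genes (0.299%) were higher and 58 (0.468%) lower, of which 4 (0.0495% of the bright genes) and 13 (0.161%) were bright. Dim genes thus made up the larger share of the differences: 248 (5.75%) were at least 1.5-fold higher and 263 (6.1%) lower. For 69 of the higher and 74 of the lower genes the other array was at or under the floor, so their ratio is limited by the floor.

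The probe-set noise SD sets how these counts can be read. It was 0.40 in the dimmest of 20 bins of signal, 0.22 at the limit for bright genes and 0.09 in the brightest bin. A 1.5-fold difference therefore stands much closer to the noise between probe sets for a dim gene than for a bright one. Probe sets of 1 gene gave a second check. Of the 86 higher bright genes, 50 had another measured probe set, and in 37 of those (74.0%) all probe sets lay on the same side of 0. Of the 77 lower bright genes, 50 had another one, and in 39 (78.0%) all lay on the same side. The share was 41.9% among bright genes that passed neither threshold. All measured probe sets passed 1.5-fold for 12 of the higher and 16 of the lower genes.

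**Figure D1:**
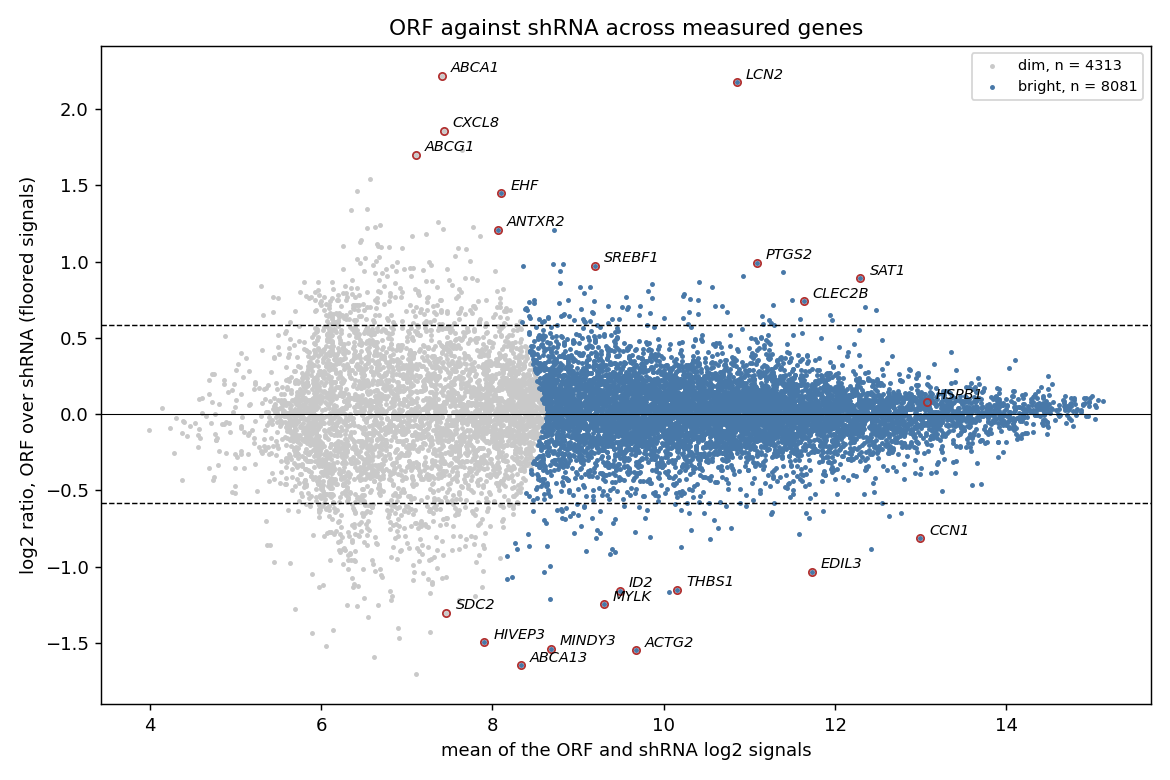
Log2 ratio of the ORF to the shRNA array (vertical axis) against the mean log2 signal of both arrays (horizontal axis) for the 12394 measured genes, 1 point per gene (blue for bright, grey for dim), with the 1.5-fold limits as dashed lines. The cloud narrows towards high signal, where LCN2 above and ACTG2 below stand apart from genes of like signal.

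The highest ratio among bright genes belonged to LCN2. It encodes lipocalin 2, a secreted protein of innate defence that binds iron-carrying siderophores of bacteria and is known as a target of NF-kB and C/EBP factors. LCN2 read 11.94 on ORF, 9.76 on shRNA and 8.33 on control. The ORF array was the highest and the control array the lowest of the 3. The difference from shRNA was 4.51-fold, a log2 ratio of 2.17 against a noise SD of 0.16, from a single probe set. The 250 bases before the LCN2 gene start (RefSeq, GRCh38.p14, plus strand, chr9:128149203-128149452) are shown because this gene led the bright genes, with a run of the NF-kB type in capitals:

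LCN2: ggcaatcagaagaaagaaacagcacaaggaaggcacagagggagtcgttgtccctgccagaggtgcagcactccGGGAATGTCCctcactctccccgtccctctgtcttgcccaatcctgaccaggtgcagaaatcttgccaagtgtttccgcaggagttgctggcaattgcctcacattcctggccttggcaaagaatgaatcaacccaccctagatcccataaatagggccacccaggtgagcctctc

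The capitals mark GGGAATGTCC, a motif looked for after the LCN2 value had been seen, on both strands. It was taken from this window as GGG and CC with 5 bases between them. It occurs in 21 of 27305 promoter windows of the same length in the RefSeq table (0.0769%), and its base nearest to the gene start lies 167 bases upstream. The letters CATTCC, discussed with the TEAD factors further on, also match within it on the other strand, and again nearer to the gene start on the printed strand. A match describes the letters and is not evidence of binding.

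Other bright genes higher on ORF came from signalling, adhesion and metabolism. PTGS2, the inducible cyclooxygenase that starts prostaglandin synthesis, read 11.58 on ORF, 10.59 on shRNA and 9.69 on control. Its log2 ratio was 0.99 (noise SD 0.15), and its second probe set gave 1.09. As for LCN2, the shRNA array lay between the other arrays. SAT1, which acetylates polyamines and so begins their breakdown, read 12.74, 11.85 and 11.82 in the same order, and its 3 probe sets gave log2 ratios from 0.73 to 0.93. SLC7A2, a carrier of arginine and lysine, read 10.85, 9.98 and 9.67, with both measured probe sets at or above 0.78. For SAT1 the shRNA and control arrays were nearly equal, and for SLC7A2 the control array was the lowest. ANPEP, an aminopeptidase at the cell surface, was 1.98-fold higher on ORF (9.32 against 8.34, control 8.13). IER3, an immediate early gene of the stress response, was 1.91-fold higher (11.86 against 10.93, control 10.78). BHLHE40, a basic helix-loop-helix repressor that acts in the circadian clock, was 1.87-fold higher (11.38 against 10.48, control 10.92). BHLHE40 also had a second probe set, which gave a log2 ratio of 0.65.

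For some leading genes the probe sets disagreed in size. EHF, an ETS factor of epithelial cells, read 8.83 on ORF, 7.38 on shRNA and 8.46 on control, a log2 ratio of 1.45. Its other measured probe set gave 0.05, a value limited by the floor (5.98 on ORF, under the floor on shRNA). PRELID2 had a log2 ratio of 1.21 with another probe set at 0.02, so the ratios of EHF and PRELID2 each rest on 1 probe set. Probe sets of SORBS2, an adaptor of stress fibres and cell junctions, ranged from 0.31 to 1.53 over 6 measured sets. All measured probe sets of ANTXR2, the anthrax toxin receptor 2 (1.21 and 0.61), CLEC2B (0.74 and 1.19), HEY1 (0.79 and 0.93) and PI3 (0.75 and 0.94) lay past the 1.5-fold threshold. Dim genes in the same class included TNFAIP6 (1.26 and 1.71), SCARA5 (0.96 and 1.17), MYO1G (0.89 and 1.05), MST1 (0.81 and 0.92) and SMG9 (0.75 and 0.81). LOC105376292, an uncharacterised locus with 1 probe set, had a log2 ratio of 0.86.

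**Figure D2:**
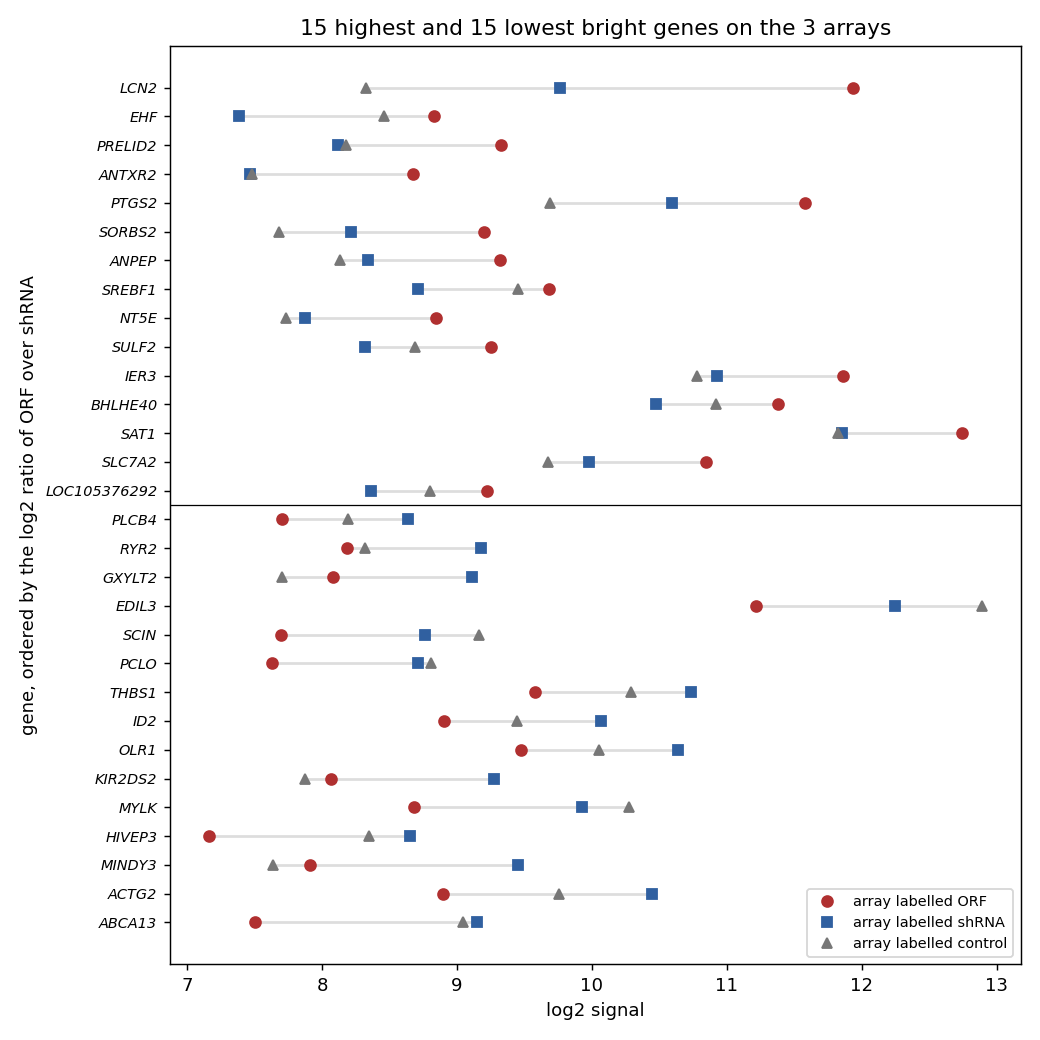
Log2 signals of the 15 highest and 15 lowest bright genes on the arrays labelled ORF, shRNA and control, 1 point per array, ordered by the ratio of ORF to shRNA. The genes run from LCN2 at 11.94 on ORF and 9.76 on shRNA to ABCA13 at 7.51 and 9.15.

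Targets of NF-kB were unevenly higher on ORF. Of 26 such genes on the array design, 23 were measured, with a median log2 ratio of 0.11 against 0.01 over all measured genes. At 1.5-fold, 6 were higher and 2 were lower, where 2.69% and 2.74% of all measured genes were. CXCL8 (interleukin 8, which attracts neutrophils) read 8.36 on ORF, 6.50 on shRNA and 5.41 on control, a log2 ratio of 1.86 with a noise SD of 0.41. Its second probe set gave 0.35, with shRNA under the floor there. CXCL1, another neutrophil chemokine, read 7.93, 7.05 and 6.33, and IL1A, which starts inflammatory signalling, read 6.72 against a value under the floor. The other measured probe set of IL1A gave 0.10. The feedback inhibitors NFKBIA (11.38 on ORF and 10.88 on shRNA) and NFKBIZ (10.62 and 9.96) were higher on ORF by 0.50 and 0.67. CCL2, which attracts monocytes, went the other way, with 6.03 on ORF, 7.29 on shRNA and 7.18 on control, and so did MMP9 at 6.07, 6.66 and 6.62. RELB (8.11 on ORF and 8.56 on shRNA), ICAM1, NFKB1 and TNFAIP3 were lower or near equal on ORF, with log2 ratios of -0.45, -0.13, -0.13 and -0.08. The list thus differed in both directions.

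Secreted defence proteins of epithelia, a list that contains LCN2, had all 10 measured members above 0, out of 20 on the array design. Their median log2 ratio was 0.29, and 3 members were at least 1.5-fold higher, where 2.69% of all measured genes were. PI3, the elastase inhibitor elafin, read 11.87 on ORF, 11.12 on shRNA and 10.01 on control. PIGR, which carries antibodies across epithelia, read 6.83, 6.01 and 6.57, close to the floor. The complement genes C3 (12.69 on ORF and 12.43 on shRNA) and CFB (8.27 and 7.97) were higher by 0.26 and 0.30, and the inhibitor SLPI differed by 0.17. Between LCN2 and these genes the size of the difference thus varied widely. Over all measured genes 52.2% lay above 0, and over bright genes 53.1%.

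Cholesterol in animal cells is made by a chain of enzymes whose genes are switched on by SREBP factors when sterols are low. INSIG proteins hold SREBP back in the endoplasmic reticulum, and LXR receptors, which sense oxidised sterols, switch on genes for cholesterol export. Most enzymes of cholesterol synthesis read higher on ORF, by small amounts. Of 16 on the array design, 15 were measured, and all 15 had a log2 ratio above 0, with a median of 0.35 against 0.01 over all measured genes. At 1.5-fold, 2 of 15 were higher and 0 lower, where 2.69% and 2.74% of all measured genes were. MVD was under the floor.

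In pathway order, HMGCS1, which makes HMG-CoA, read 12.85 on ORF, 12.47 on shRNA and 13.13 on control. Of the mevalonate steps, MVK and PMVK had log2 ratios of 0.28 and 0.35. IDI1, the isomerase of the isoprenoid units, read 12.47, 12.08 and 12.82. FDPS, which joins those units, differed by 0.10. SQLE, the monooxygenase that opens the sterol branch, read 12.27, 11.83 and 12.44, a log2 ratio of 0.44. For HMGCS1, IDI1 and SQLE the shRNA array was the lowest of the 3 and the control array the highest. LSS, which closes the rings to lanosterol, read 11.55, 10.95 and 11.86, a 1.52-fold difference. Its 2 other probe sets, both dim, gave 0.05 and -0.04. MSMO1, HSD17B7 and NSDHL, which act in the steps that remove methyl groups from the sterol, differed by 0.41, 0.42 and 0.17. EBP differed by 0.19. DHCR7, the last reductase, read 10.55, 9.91 and 10.64, a 1.55-fold difference, with 0.37 from its other probe set. ACAT2, SC5D and TM7SF2 were near equal, at 0.10, 0.02 and 0.06, and TM7SF2 was close to the floor.

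Regulators of the pathway lay on the same side. Of 13 measured genes of SREBP control and sterol uptake, 11 were above 0, with a median of 0.27, and 2 were at least 1.5-fold higher. Over all measured genes these shares were 52.2% above 0 and 2.69% at least 1.5-fold higher. INSIG1, itself a target of SREBP, read 12.28 on ORF, 11.65 on shRNA and 12.41 on control. Its 3 probe sets gave log2 ratios from 0.62 to 0.90, against a noise SD of 0.12. SREBF1, which encodes SREBP-1, read 9.68, 8.71 and 9.45, a log2 ratio of 0.97, but its second probe set gave 0.10. SREBF2, which encodes SREBP-2, differed by 0.40 and NPC1, which exports cholesterol from lysosomes, by 0.33. FABP5 and STARD4 were lower on ORF, by log2 ratios of -0.25 and -0.11.

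Fatty acid genes differed unevenly. The list had 23 measured members, a median of 0.14 and 15 members above 0, and 1 was at least 1.5-fold higher. Over all measured genes 52.2% lay above 0 and 2.69% were at least 1.5-fold higher. SCD, the desaturase that makes oleate, read 12.82 on ORF, 12.14 on shRNA and 12.90 on control, a 1.60-fold difference, and its 4 probe sets ranged from 0.22 to 0.68. ELOVL6, the elongase that supplies it, read 11.58 on ORF and 11.49 on control with a log2 ratio to shRNA of 0.58, just under 1.5-fold, and FASN, the fatty acid synthase, read 11.77, 11.25 and 11.78. These 3 genes read lowest on shRNA, with ORF and control within 0.1 of each other. ACACA (0.12), ELOVL5 (-0.07) and FADS3 (-0.02) differed little. ACLY gave 0.04 at its brightest probe set and 0.40 and 0.31 at its other measured ones. FADS2 was higher on ORF at 0.34, and ME1 was lower at -0.19.

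The largest ratio of all measured genes was in cholesterol export. ABCA1, which loads cholesterol onto apolipoprotein A-I, read 8.51 on ORF, 6.30 on shRNA and 7.01 on control. The difference was 4.65-fold, a log2 ratio of 2.22 with a noise SD of 0.35, and its other measured probe set gave 0.89. ABCG1, which passes cholesterol to high-density lipoprotein, read 7.95, 6.26 and 6.63, a log2 ratio of 1.70, with the lowest of its 4 probe sets at 0.08. Both are dim, and on shRNA both were within 0.4 of the floor. The other LXR targets differed less. The median over the 11 measured members was 0.08, with 7 above 0. NR1H3, which encodes LXR-alpha, and ABCA7 were higher by 0.40 and 0.39, and SCARB1, ABCG2 and LPCAT3 had ratios of 0.08, -0.12 and 0.07. APOE read 6.73 on ORF and 7.16 on shRNA, and RXRA, the partner receptor of LXR, was lower on ORF by a log2 ratio of -0.59 (10.60 against 11.18).

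**Figure D3:**
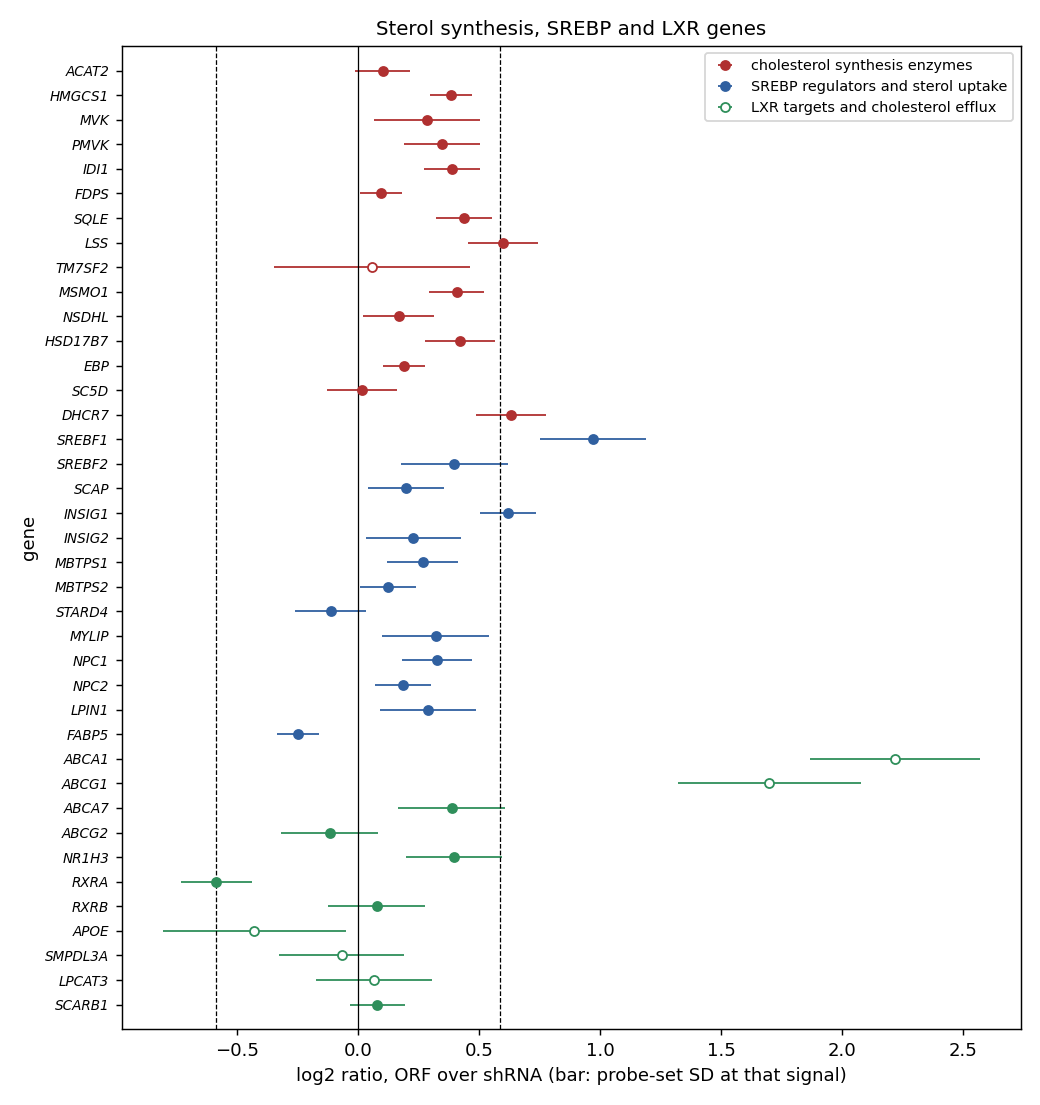
Log2 ratio of the ORF to the shRNA array for the measured genes of cholesterol synthesis, of SREBP control and of LXR targets, 1 point per gene with its probe-set noise SD as a bar, filled for bright and hollow for dim genes, and dashed lines at 1.5-fold. All 15 cholesterol enzymes lie above 0, and ABCA1 at 2.22 and ABCG1 at 1.70 lie far above the other LXR targets.

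Smooth muscle actin and partners of it were among the bright genes lowest on ORF. Contractile genes are switched on by serum response factor (SRF), which binds a sequence called the CArG box with cofactors that respond to free actin or, in muscle, with myocardin. ACTG2, the smooth muscle gamma actin, read 8.90 on ORF, 10.45 on shRNA and 9.75 on control, a 2.92-fold difference (log2 ratio -1.55, noise SD 0.20). MYLK, the kinase that switches on smooth muscle and nonmuscle myosin, read 8.68, 9.92 and 10.28, and its other measured probe set gave -0.76. The ORF array was the lowest of the 3 for both genes. MYL9, the myosin light chain that MYLK phosphorylates, read 10.41, 11.15 and 10.92. LIMA1, which bundles actin, read 12.30, 12.97 and 12.62, with 3 probe sets from -0.67 to -0.25. TAGLN (transgelin) read 9.44, 10.24 and 10.04. Its probe sets disagreed: a second gave -0.64, and the third, a dim one and the only one whose name does not end in _s_at, gave 0.50.

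Over the list of SRF targets and contractile genes, 24 of 26 were measured, with a median of -0.17. At 1.5-fold, 5 were lower on ORF and 0 higher, where 2.74% and 2.69% of all measured genes were. Of the 24, 7 lay above 0, against 52.2% of all measured genes. CALD1 (caldesmon), ACTN1 (alpha-actinin) and TGFB1I1 had log2 ratios of -0.50, -0.39 and -0.31, and TPM1 (tropomyosin) had -0.29. The measured probe sets of CALD1 disagreed, ranging from -0.70 to 0.52. Other abundant members differed less, with ACTB at 0.05, TPM2 at 0.02, VCL at -0.14 and MYH9 at -0.22. SRF itself differed by 0.07, and MYH10, a nonmuscle myosin, was higher on ORF at 0.45. MYOCD (myocardin), named after its value was seen, was dim and read 8.22 on shRNA and 8.09 on control, with ORF lower than shRNA at both probe sets, at -1.22 and -0.62. Beside these genes, the fibroblast and stellate markers had a median of -0.17 over 9 measured genes. COL1A1 was 1.57-fold and DES 1.55-fold lower on ORF, ACTA2 was close to the floor (6.06 and 6.26), and DCN and FAP were higher by 0.43 and 0.55. The part of such cells in the contractile difference was not tested, and in bulk RNA fewer cells of a type and less RNA per cell cannot be told apart.

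The promoters of ACTG2 and MYLK are shown because they belong to the lowest bright genes of that list and hold a CArG box, marked in capitals. The first window is chr2:73892758-73893007 on the plus strand and the second chr3:123620549-123620798 on the minus strand (RefSeq, GRCh38.p14, 250 bases before the gene start, written 5′ to 3′ in the direction of the gene):

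ACTG2: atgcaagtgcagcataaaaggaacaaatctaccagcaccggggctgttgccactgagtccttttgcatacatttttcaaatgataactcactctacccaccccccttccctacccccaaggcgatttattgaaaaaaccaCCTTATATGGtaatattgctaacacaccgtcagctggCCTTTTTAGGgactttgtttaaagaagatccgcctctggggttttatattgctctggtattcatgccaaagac

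MYLK: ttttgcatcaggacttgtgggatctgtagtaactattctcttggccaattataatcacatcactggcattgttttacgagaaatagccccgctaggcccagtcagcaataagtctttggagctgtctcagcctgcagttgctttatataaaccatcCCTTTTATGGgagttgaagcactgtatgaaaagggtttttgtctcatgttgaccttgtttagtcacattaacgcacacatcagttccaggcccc

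ACTG2 holds 2 CArG boxes, whose bases nearest to the gene start lie 101 and 64 bases upstream, and MYLK holds 1, at 85 bases. The box was searched on both strands of all windows. It was present in 6 of the 21 promoters of this list that the table holds (28.6%), in 1.14% of all 27305 promoters and in 1% of the 10088 promoters of measured genes. Lists of SRF targets are compiled partly through this box, so its share among them is a description of the list. Genes at least 1.5-fold lower on ORF held it in 5 of 236 promoters (2.12%), and genes at least 1.5-fold higher in 5 of 254 (1.97%). Among bright genes the counts were 2 of 57 lower (3.51%) and 0 of 69 higher. Of the other list members with a box, FHL2 had a log2 ratio of -0.24, TPM4 -0.15, CNN2 -0.14 and SRF 0.07.

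**Figure D4:**
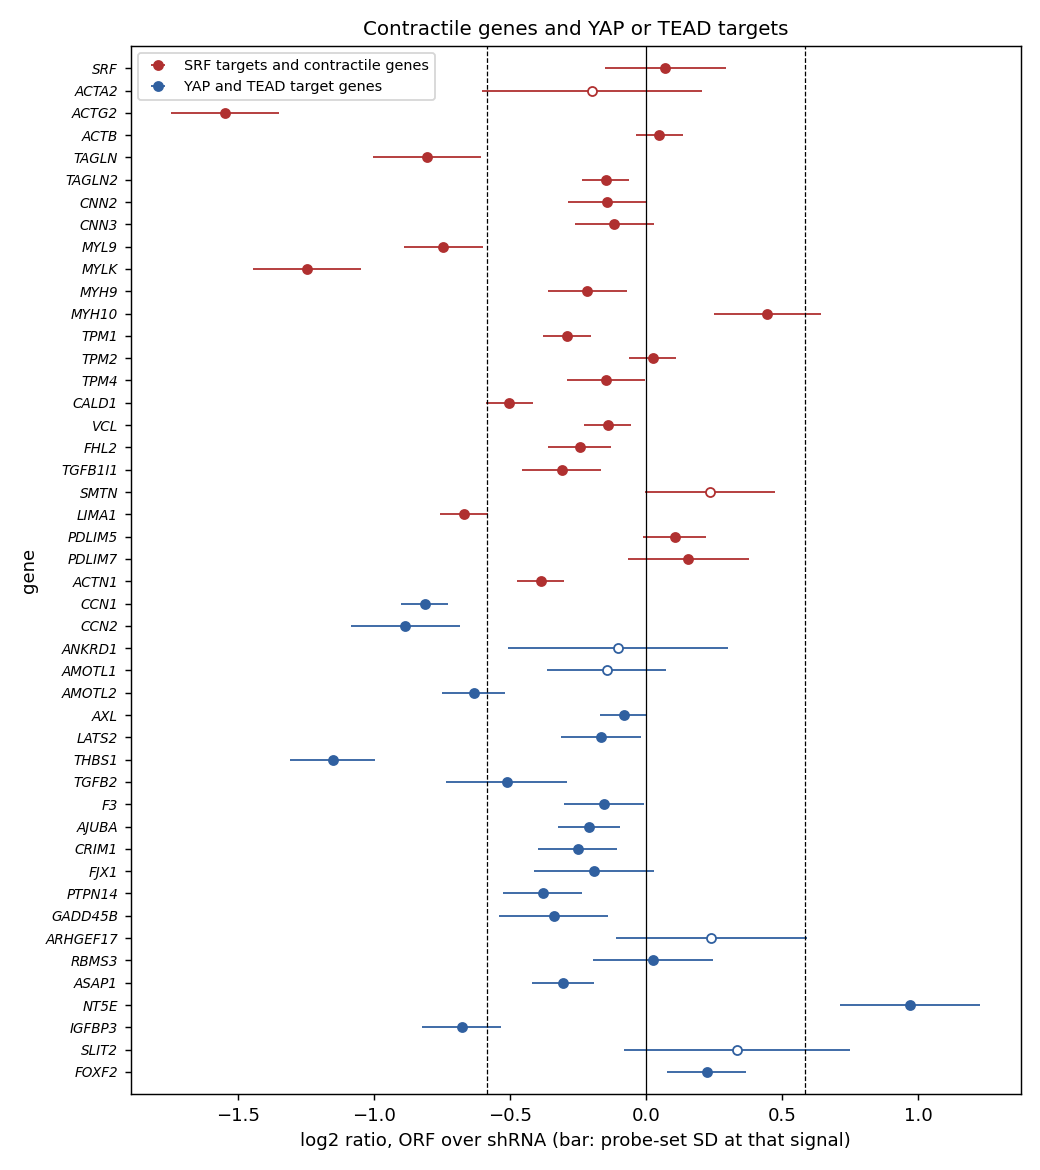
Log2 ratio of the ORF to the shRNA array for the measured SRF targets with contractile genes and for the YAP and TEAD targets, 1 point per gene with its probe-set noise SD as a bar, filled for bright and hollow for dim genes, and dashed lines at 1.5-fold. In each list 17 genes lie below 0, and the extremes are ACTG2 at -1.55 and NT5E at 0.97.

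Targets of YAP, a coactivator that enters the nucleus when cells spread or actin tension is high and acts through TEAD factors, mostly read lower on ORF. Of 22 measured targets, 17 lay below 0, the median was -0.20, and 5 were at least 1.5-fold lower, where 2.74% of all measured genes were. CCN1, a matricellular protein, read 12.59 on ORF, 13.40 on shRNA and 12.68 on control. Its 2 probe sets both gave a log2 ratio close to -0.8 (-0.81 and -0.83), against a noise SD of 0.09. CCN2 (connective tissue growth factor) read 8.95, 9.84 and 9.43, with 1 probe set. THBS1 (thrombospondin 1), which binds matrix and activates TGF-beta, read 9.58, 10.73 and 10.29, and its 4 measured probe sets ranged from -1.15 to -0.36. AMOTL2, a feedback regulator of YAP, read 11.55, 12.18 and 11.50. IGFBP3, which binds insulin-like growth factors, read 11.35, 12.03 and 11.43, but its second probe set, also bright, gave -0.09. For CCN1, AMOTL2 and IGFBP3 the control array lay close to ORF, and for CCN2 and THBS1 it lay between ORF and shRNA. NT5E, the enzyme that makes extracellular adenosine, was the only list member at least 1.5-fold higher on ORF (8.84 against 7.87, control 7.74), and its other 3 probe sets gave 0.65, 0.16 and 0.09. AXL, LATS2 and AJUBA differed by -0.08, -0.16 and -0.21 at their brightest probe sets. The other measured probe sets gave -0.56 for AXL and -0.48 and -0.55 for LATS2, and ranged from -0.46 to 0.06 for AJUBA. The defining target ANKRD1 was near or under the floor on both arrays.

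The promoters of CCN2 and THBS1 are shown because both genes lie on the lower side and their windows carry the TEAD core, searched as CATTCC on both strands and marked in capitals where it stands. The first window is chr6:131951373-131951622 on the minus strand and the second chr15:39580829-39581078 on the plus strand (RefSeq, GRCh38.p14, 250 bases before the gene start):

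CCN2: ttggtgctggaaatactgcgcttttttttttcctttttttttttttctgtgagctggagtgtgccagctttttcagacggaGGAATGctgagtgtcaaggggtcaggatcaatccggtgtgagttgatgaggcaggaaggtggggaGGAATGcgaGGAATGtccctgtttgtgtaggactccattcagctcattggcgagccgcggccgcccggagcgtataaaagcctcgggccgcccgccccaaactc

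THBS1: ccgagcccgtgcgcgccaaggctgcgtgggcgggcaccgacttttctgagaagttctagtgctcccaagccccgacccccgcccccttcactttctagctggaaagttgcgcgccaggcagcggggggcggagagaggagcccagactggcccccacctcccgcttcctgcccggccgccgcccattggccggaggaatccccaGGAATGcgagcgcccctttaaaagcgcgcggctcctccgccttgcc

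CCN2 holds 3 matches and THBS1 holds 1, all written as GGAATG, the reverse complement of the core. The core was found in 6 of 18 promoters of the YAP list (33.3%), in 9.37% of the promoters of measured genes and in 11.9% of all promoters in the table. Genes at least 1.5-fold lower on ORF held it in 11% of 236 promoters and genes at least 1.5-fold higher in 9.06% of 254. A sterol element core, TCACNCCAC on both strands, was in 0 of 13 promoters of the cholesterol enzymes and in 1 of 12 of the SREBP list, that of SREBF2, against 0.882% for measured genes. Its absence says only that these letters are not in these windows. It was in 1 of 19 promoters of the fatty acid list (5.26%), in 5 of 254 promoters of genes at least 1.5-fold higher on ORF (1.97%) and in 0 of 236 of genes at least 1.5-fold lower.

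The remaining genes that led the lower side were of several kinds. ABCA13, a large ABC transporter, read 7.51 on ORF, 9.15 on shRNA and 9.04 on control, with both measured probe sets past 2-fold (log2 ratios -1.65 and -1.24). MINDY3, a deubiquitinase, read 7.91, 9.45 and 7.63, so here the shRNA array stood above the other arrays. ID2, an inhibitor of helix-loop-helix factors that BMP signals switch on, read 8.91, 10.06 and 9.45, with probe sets at -1.16 and -1.36. OLR1, a receptor for oxidised low-density lipoprotein, read 9.47, 10.64 and 10.05. EDIL3, a secreted ligand of integrins, read 11.21, 12.25 and 12.89, a 2.05-fold difference between ORF and shRNA. RYR2, a calcium release channel, read 8.18, 9.17 and 8.32, and PLCB4, a phospholipase of calcium signalling, read 7.70, 8.63 and 8.19. Both measured probe sets of each lay past 1.5-fold. The ion channel list holds PLCB4 but not RYR2. As a whole it lay on the other side, with 12 of 17 measured genes above 0 and a median of 0.18. CACNA1D (0.75) and KCNJ2 (0.60), both dim, were past 1.5-fold higher, and PLCB4 alone was past it lower. Over all measured genes 52.2% lay above 0, 2.69% were at least 1.5-fold higher and 2.74% lower. Of dim genes, 5.75% were at least 1.5-fold higher. GXYLT2, which adds xylose to Notch, also had both measured probe sets past 1.5-fold lower on ORF (-1.03 and -0.86). So did the 3 measured probe sets each of STXBP6 (-1.37 to -0.86) and SCIN (-1.16 to -0.97). HIVEP3 was 2.82-fold lower (7.16 and 8.65), with the nearest to 0 of its 4 probe sets at -0.24, and PCLO had ratios of -1.08 and -0.45. KIR2DS2 had a ratio of -1.21, but it belongs to a family of nearly identical receptor genes, so its probe set cannot be assigned to it alone with certainty. Dim genes with all measured probe sets past 1.5-fold included LINC01547, ATP8B2 and IL1RAP, with ratios of -1.11, -1.04 and -0.81.

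Actin-severing and scaffold proteins were measured for 27 genes, of which 3 were at least 1.5-fold lower on ORF and 0 higher, where 2.74% and 2.69% of all measured genes were. SCIN (adseverin), which cuts actin filaments, read 7.70 on ORF, 8.76 on shRNA and 9.16 on control. CDC42EP3, an effector of CDC42, read 9.41, 10.02 and 9.65, and its 4 probe sets were all below -0.4. The filament regulators that are most abundant were near equal, with CFL1 (cofilin) at 0.05 and DSTN at -0.08, and the list median was -0.08.

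Matrix genes lay below 0 for the most part, by small amounts. Of 30 measured collagens, laminins and other matrix proteins, 21 lay below 0 with a median of -0.18, and 2 were at least 1.5-fold lower and 1 higher. These counts are near the shares over all measured genes (2.74% and 2.69%). Taking each gene's median over its probe sets, the list median was -0.01. COL1A1, the main chain of fibrillar collagen, read 9.97 on ORF, 10.62 on shRNA and 9.82 on control, with probe sets at -0.65, -0.66 and 0.01. COL5A1, LUM (lumican) and COL4A1 had ratios of -0.42, -0.33 and -0.31, but the second probe set of COL4A1 gave 0.24. TNFAIP6, a hyaluronan-binding protein made in inflammation, was the exception at 1.26 (7.99 on ORF, 6.73 on shRNA), and the laminin chain LAMA5 and DCN (decorin) were higher by 0.36 and 0.43. Of 18 measured mesenchymal genes and EMT factors, 13 lay below 0, with a median of -0.06. ZEB1, TWIST1 and VIM (vimentin) differed little, at -0.01, 0.05 and -0.02, while TWIST2 and SNAI2 had ratios of -0.41 and -0.34. ZEB2, a dim gene, was lower at -0.87, with its other probe set at -0.12.

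Heparan sulphate chains at the cell surface hold growth factors, and genes that build or edit them differed in both directions. Of 17 measured, 2 were higher and 2 lower by 1.5-fold or more, beside 2.69% and 2.74% of all measured genes, and the median was -0.13. SULF2, which removes sulphate groups from the chains outside the cell, read 9.25 on ORF, 8.32 on shRNA and 8.69 on control, and its second probe set gave 0.33. GLCE, the epimerase of the chain, read 8.85, 8.23 and 8.19. The core proteins went the other way. SDC2 (syndecan 2) read 6.81, 8.11 and 7.92, with 3 probe sets from -1.40 to -0.65, and GPC1 (glypican 1) read 9.49, 10.12 and 9.72, with its other probe set at -0.05. SDC1, SDC3 and SDC4 had smaller ratios of -0.25, -0.22 and -0.13.

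Epithelial regulators and junction genes lay on both sides of 0. Of 22 measured, 13 lay above 0 and 9 below, with a median of 0.09. At 1.5-fold, 4 were higher on ORF and 0 lower, where 2.69% and 2.74% of all measured genes were. Besides EHF, these were CLDN4 (8.75 on ORF and 8.11 on shRNA), CLDN7 (7.73 and 6.86), both sealing proteins of tight junctions, and SPINT2, an inhibitor of surface proteases (8.15 and 7.54). CDH1 (E-cadherin) was under the floor on both arrays, and EPCAM, TJP1 and DSP differed by 0.03, -0.18 and -0.19. KLF4, PKP2 and OCLN were lower, at -0.48, -0.37 and -0.27. The integrins ITGA2 and ITGB4, which join epithelia to collagen and laminin, were higher at 0.63 and 0.60, with their other probe sets at 1.22 and 0.95. ITGA6, the partner of ITGB4, was lower at -0.44. Of the EGF receptor family, EGFR was near equal at 0.11. ERBB3 was 1.91-fold higher (7.56 on shRNA), with its other measured probe sets at 0.47 and, close to the floor, -0.13. Its ligand NRG1 was 1.72-fold lower (8.87 and 9.65), with its other measured probe sets, both dim, at 0.30 and -0.37.

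Interferon-stimulated genes were lower on ORF in part. Of 23 measured, 4 were at least 1.5-fold lower and 0 higher, with a median of -0.09. The share lower was 2.74% over all measured genes and 6.1% over dim genes, and 3 of the 4 were dim. OASL, an antiviral protein, read 10.23 on ORF, 10.93 on shRNA and 9.78 on control, and its second probe set gave -0.48. IFIT1, IFIT2 and IFIT3, antiviral proteins of 1 family, had ratios of -0.51, -0.51 and -0.53, and ISG15 had -0.48. The second probe set gave -0.30 for IFIT2, where it was dim, and 0.07 for IFIT3, where it was bright. For OASL the shRNA array was the highest of the 3, as it was for IFIT1 (9.32, 9.83 and 8.85). The chemokines CCL5, CXCL10 and CXCL11 were dim, with ORF at or close to the floor. OAS1 (0.34), BST2 (0.24) and IRF1 (0.13) lay on the other side, but the second probe set of OAS1 gave -0.15.

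Clock, Notch and Wnt lists held few genes past 1.5-fold. Of 15 measured clock genes, 12 lay above 0, with a median of 0.14, and 2 were at least 1.5-fold higher and 1 lower. Over all measured genes 52.2% lay above 0, 2.69% were at least 1.5-fold higher and 2.74% lower. DBP, a clock output factor, read 8.51 on ORF and 7.81 on shRNA, with its other probe set at 0.17. The core factors CLOCK and BMAL1 differed by 0.08 and 0.17 at their brightest probe sets. Their other measured probe sets lay below 0, at -0.325 and -0.53 for CLOCK and -0.24 for BMAL1. CRY2 was under the floor on ORF and 6.88 on shRNA. In the Notch list, with 1 of 17 measured genes past 1.5-fold in each direction, HES2, a dim gene, was under the floor on ORF and read 6.97 on shRNA (log2 ratio -1.05). HEY1, a target, read 9.46, 8.67 and 8.92, while HES1 differed by 0.32 and JAG1, a ligand, by -0.43. DKK3, an inhibitor of the Wnt family, read 6.49 on ORF and 7.38 on shRNA, and CTNNB1 (beta-catenin) differed by 0.08.

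Lists for growth, energy and protein folding held few genes past 1.5-fold. All 34 measured ribosomal protein genes had ratios between -0.04 and 0.20, with a median of 0.07, and 0 passed 1.5-fold in either direction. Oxidative phosphorylation subunits had a median of 0.01 over 40 genes and mitotic genes 0.01 over 30, again with 0 past 1.5-fold. Among 31 S-phase genes E2F1 alone passed it, at -0.69 with its other probe set at 0.01. Chaperones of the HSF1 type, which fold proteins with or after Hsp27, had a median of 0.00 over 22 genes, and the unfolded protein and stress response list one of 0.13 over 26. HSP90AA1, HSPD1 and HSPA9 differed by -0.01, 0.00 and -0.01, BAG3 and HSPA2 were lower at -0.25 and -0.53, and HSPA1L, a dim gene, was higher at 1.18. In the glycolysis and hypoxia list ENO2 passed the threshold, at 0.74, among 33 measured, and LDHA and HIF1A differed by 0.07 and -0.13. Some medians this close to 0 change sign with the scaling of the arrays, so they show no direction.

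**Figure D5:**
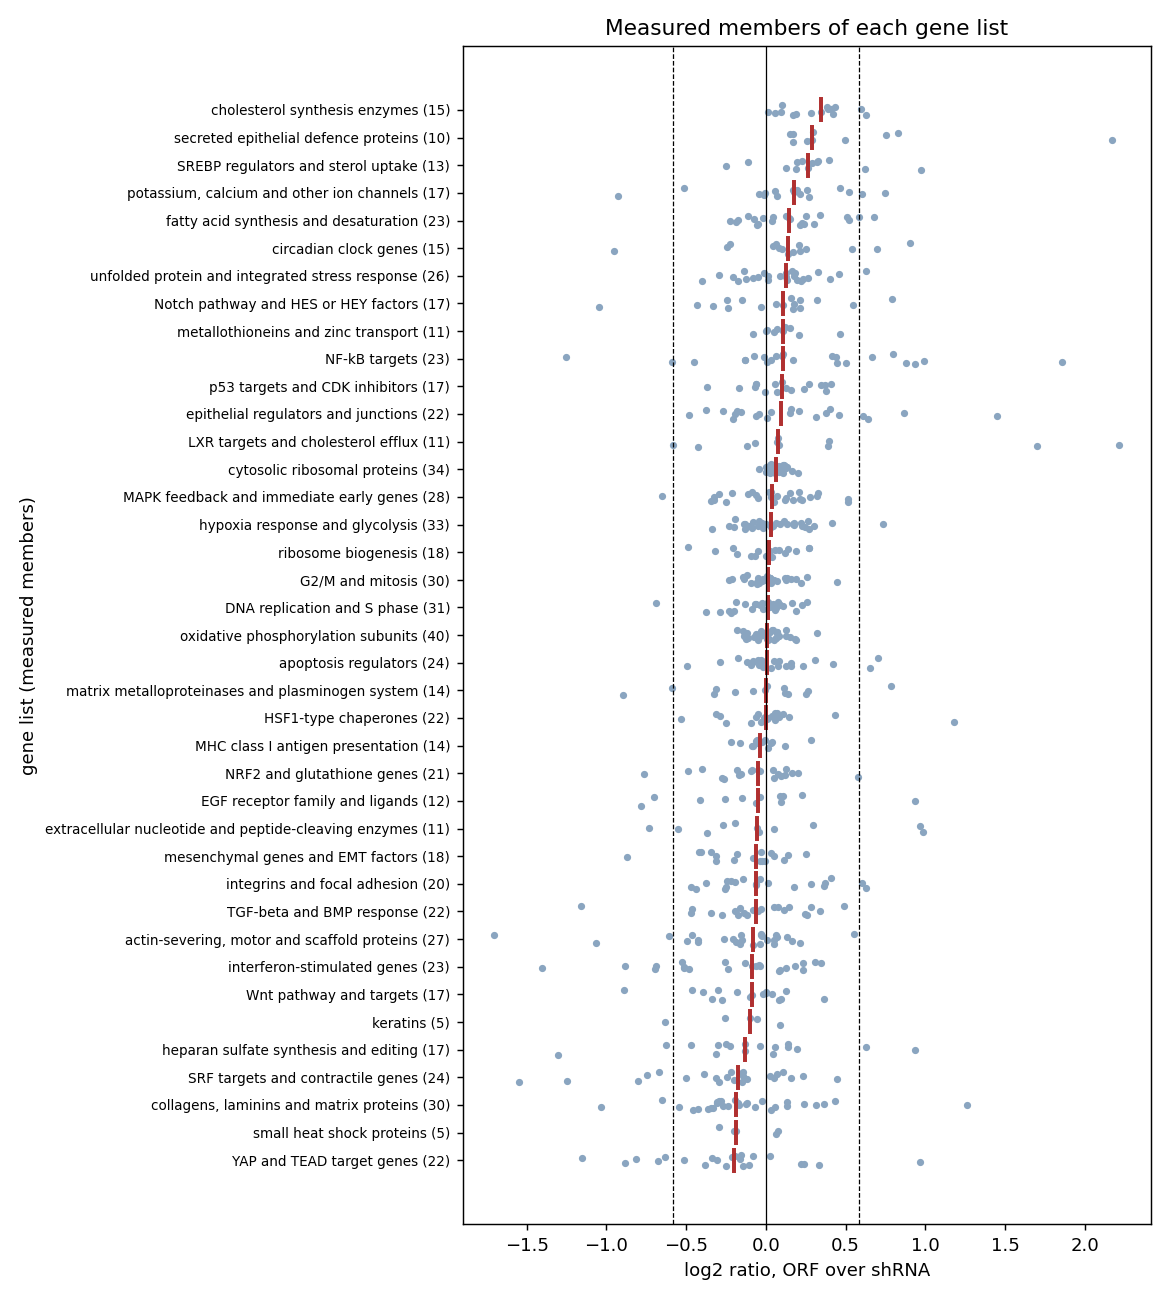
Median log2 ratio of the ORF to the shRNA array (red bar) and the single measured members (points) of each gene list other than the cell type markers, with dashed lines at 1.5-fold. Cholesterol synthesis (0.35) and defence proteins (0.29) lie on the higher side, and YAP and TEAD targets (-0.20) with matrix proteins (-0.18) on the lower side.

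By chromosome, the median ratio of bright genes ran from -0.032 on chromosome 13 to 0.048 on chromosome 16. Long noncoding RNAs, of which 115 of 690 measured were bright, were at least 1.5-fold higher on ORF in 6.38% and lower in 4.20%. Of 11464 protein-coding genes, of which 7907 were bright, 2.39% were higher and 2.60% lower. The classes thus differed in their share of bright genes as well as in these counts, and the part of signal was not tested.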

How the data were processed

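Total RNA of 3 cultures was measured on 3 short-oligonucleotide arrays, 1 per transfection label, by which arrays were grouped. The authors deposited 1 log2 signal for each of 54675 probe sets. MAS5 is named in the submitters' processing notes, with version and scaling target not given in the sources used here. The log2 scale was read from the values.

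Of the probe sets, 41097 had 1 symbol in GEO's platform annotation, 1801 had several and 11777 none. The last 2 kinds entered no gene count. By gene identifier, 41043 matched RefSeq's table for GRCh38.p14, and 0 symbols were updated. Arrays were brought to 1 common 2% trimmed mean (500.1 as deposited), the floor was set, and log2 ratios were taken, so ratios near it understate differences. The probe-set noise SD is the SD of the difference in ratio between probe sets of 1 gene within 1 log2 unit of mean signal, divided by the square root of 2, over 4268 pairs in 20 bins. There is no test, since the number of arrays limits the precision, and a signal has no counting error to give.

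The named genes were HSPB1, the 15 highest and 15 lowest bright genes whose other measured probe sets had the same sign, the 12 highest and 12 lowest genes by their least extreme probe set, up to 6 members per list past 1.5-fold, and the cholesterol enzymes. Other list members are named to show the spread of a list and, like the NF-kB run, the printed promoters and MYOCD, were chosen after their values were seen. The comparison, its members and the 47 gene lists were chosen with earlier results of these data known. Genes not paired with a probe set of 1 symbol were not analysed here, and 1 gene of the actin-severing list is not reported here. Alternatives were quantile normalization, loess centring, equal medians, no floor, the 75th percentile as floor, each gene's median over its probe sets, and dropping probe sets named _x_at or _s_at. The procedure was tested on simulated data. Python 3.11.15, numpy 2.4.6, pandas 2.3.3, statsmodels 0.14.6 and matplotlib 3.10.9 were used.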

Additional observations from a re-analysis of the deposited data

Results flagged for a closer look

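Probe sets that name no gene or several genes lay outside the gene comparison, and 6 bright ones differed at least 2-fold between ORF and shRNA with the brighter array more than 2-fold above control. The largest difference was at 222227_at, which has no gene symbol: it read 11.36 on ORF, 3.03 on shRNA and 9.68 on control, a log2 ratio of 5.43 after flooring (43.2-fold) and 8.33 without a floor. Probe set 214456_x_at, with several symbols, read 11.09, 9.23 and 6.95, a log2 ratio of 1.86. Probe set 208607_s_at, also with several, read 9.81, 8.17 and 6.74, a log2 ratio of 1.64. Probe set 1555743_s_at, with none, read 8.97, 7.93 and 7.71, a log2 ratio of 1.04. On the lower side, 1568955_at read 9.44, 10.76 and 9.49 (log2 ratio -1.31), and 222288_at read 7.70, 8.77 and 7.14 (log2 ratio -1.07). In both of these the shRNA array stood above the other arrays.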

How the results depend on the processing

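Quantile normalization, loess centring and equal medians kept every count within 1.5 times its value and every named gene and list median within its noise or 0.1, apart from the sign of medians near 0. Other choices mattered more. Without a floor, 531 genes were at least 1.5-fold higher on ORF and 605 lower, and 157 and 221 at 2-fold. With the floor at the 75th percentile, the counts were 63, 56, 1 and 6 over all measured genes and 1 and 6 for bright genes at 2-fold. With the median over probe sets, they were 182, 176, 19 and 26 over all measured genes, 54 and 46 for bright genes at 1.5-fold and 8 for bright genes at least 2-fold lower. Without probe sets ending in _x_at or _s_at, TAGLN turned to 0.50 and the fibroblast and stellate marker median to 0.091; the cause was not tested. HSPB1 lay between 0.05 and 0.08 where it had a value and has none without those probe sets. Over all alternatives, named genes moved by less than their noise in 565 of the recomputed values, by more in 129, and reversed in 1; list medians did so in 283, 13 and 1. No paired analysis was possible because there is 1 array per group and the labels carry no replicate numbers. Dim signals are a further limit: the noise SD of 0.40 in the dimmest bin nears the 1.5-fold threshold.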

Other observations

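Dim genes outside the lists described above included some large ratios, each from 1 measured probe set. FDCSP, a secreted protein of follicular dendritic cells, read 8.51 on ORF, 6.78 on shRNA and 6.29 on control, a log2 ratio of 1.73. CYP1A1, the oxidase switched on by the aryl hydrocarbon receptor, read 7.47 on ORF and was under the floor on shRNA and control, and LGALS9 (galectin 9) read 7.27 and was under the floor on both others. On the lower side, PTX3, a secreted pattern receptor, read 6.55, 7.98 and 6.45, so the shRNA array was the highest of the 3. GPRC5B, an orphan receptor, read 6.17, 7.64 and 6.72. PKDCC, a secreted tyrosine kinase, was under the floor on ORF and read 7.34 on shRNA and 7.36 on control. These genes were chosen after their values were seen, and at this signal the probe-set noise SD was between 0.35 and 0.42.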
